A study of Mus musculus and Rattus norvegicus with 53 samples.

Results

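The 44 collagen chains measured in sorted Schwann cells (SCs) are described here, of 24016 genes listed in the mouse counts. A gene was taken as a chain when its symbol had the form Col, a number, a and a number, so that genes with collagen-like stretches and other names were left out. By textbook class, 11 of the chains are fibrillar, 8 belong to basement membranes, 9 are FACITs (fibril-associated collagens with interrupted triple helices) and 16 are of other classes. The SCs carried tdTomato through a Cre transgene active in neural crest derivatives and a Rosa26 tdTomato reporter, and came from male and female mice whose sciatic nerve had been transected at 6 to 8 weeks of age. In the pooled-nerve experiment, tdTomato-positive cells were sorted 6 days after the cut from the contralateral intact nerve (iSCs), the distal stump (dSCs) and the bridge that forms across the wound (bSCs), so that each region had 4 libraries, each made from the nerves of 3 mice. In the single-nerve time course the cells of individual animals gave 5 iSC libraries, and 3 libraries for each later group. The dSC groups were taken on days 1 and 2 and, like the bSC groups, on days 4, 6, 8 and 10. All groups carried the reporter, and no cut nerve was compared with a nerve of an unoperated mouse. Values are given in the order of the library numbers in the labels, which are 1, 2, 4 and 5 for pooled iSCs and 1, 2, 3 and 5 for pooled dSCs and bSCs, and 0, 1, 3, 4 and 5 for single-nerve iSCs.

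Collagens are trimers of alpha chains wound into a triple helix. Fibrillar collagens build the cable-like fibrils of connective tissue, basement membrane collagens form the sheet that surrounds each SC and its axon, and FACITs sit on the surface of fibrils. Chains are hydroxylated and glycosylated in the endoplasmic reticulum, folded with dedicated chaperones, secreted and trimmed of their propeptides. In peripheral nerve, SCs are known to make type IV and type V collagens, whereas fibroblasts of the endoneurium and the wound make most of the type I and type III collagen.

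Between 11435463 and 22617054 counts per pooled library and between 9240883 and 22426128 per single-nerve library fell on genes, and 28 to 39 and 24 to 41 chains, respectively, had at least 1 count. The labelled cell type was checked with SC genes. Sox10, the transcription factor that defines the lineage, was at 220 to 422 counts scaled to library size (CPM) in the pooled iSC libraries, 69.1 to 182 in dSCs and 63.0 to 219 in bSCs. Ngfr, a receptor of immature and repair SCs, was at 92.6 to 231, 571 to 1801 and 351 to 899 CPM in the same order. The sum of 7 SC genes (Sox10, S100b, Mbp, Pmp22, Cdh19, Erbb3 and Ngfr) was 22723 to 60560 CPM in iSCs, 1573 to 6011 in dSCs and 1385 to 4436 in bSCs, with 0 of 7 at 0 throughout a group. In dSCs 4 of the 7 were called lower than in iSCs and in bSCs 5, with Ngfr higher in both (2.65 ± 0.47, adjusted p = 0.00560, and 1.95 ± 0.45, adjusted p = 0.0116). Sox10 was 1 of those lower in both (-1.46 ± 0.39, adjusted p = 0.0471, and -1.39 ± 0.39, adjusted p = 0.0302). In single nerves the sum was 5759 to 31358 CPM in iSCs and 619 to 3571 in the injured groups from day 4 on. Sox10 was lower in iSCs there, at 22.8 to 119 CPM. It was at 36.7 to 70.3 CPM in dSCs on day 4, 109 to 182 on day 6, 101 to 140 on day 8 and 62.1 to 94 on day 10. In bSCs of days 4 to 10 it was at 8.17 to 184 CPM. RNA of other cells was also present. The sum of 10 fibroblast genes was 6822 to 31286 CPM in iSCs, 17526 to 27419 in dSCs and 1835 to 6516 in bSCs, led by Dcn, with 0 of 10 at 0 throughout a group. The sum of 9 macrophage genes was 172 to 4329, 7419 to 12024 and 1770 to 5234 CPM in the same order, again with 0 of 9 at 0, while 4 T cell genes, 4 muscle genes and 4 adipocyte genes summed to at most 10.9 CPM in any pooled library. Perineurial genes (5) summed to 102 to 711 CPM, endothelial genes (7) to 139 to 763 and mural cell genes (6) to 124 to 1535 over the 12 pooled libraries. In single-nerve iSCs the same sums were higher, at 795 to 2294, 1793 to 4359 and 846 to 4827 CPM. The number of genes detected was 13600 to 14987 in pooled iSCs, 12432 to 14715 in dSCs and 11735 to 12606 in bSCs, so that the bSC libraries held fewer genes than any iSC library. In bulk RNA of this kind, a change in the share of cells that express a chain and a change in its RNA per cell cannot be told apart.

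The windows upstream of 5 chains that the results turn on are shown first, because these chains rose in both injured regions (Col8a1 and Col18a1), fell in dSCs (Col5a3 and Col23a1) or differed between the regions (Col28a1). They are the 250 bases before the annotated start, from RefSeq on the build GRCm38.p6, and lie at chr16:57754738-57754987 (minus strand), chr10:77166531-77166780 (minus), chr9:20815068-20815317 (minus), chr11:51289670-51289919 (plus) and chr6:8192618-8192867 (minus). Capitals mark every match, on either strand, to GGGCGG (the GC box bound by Sp1), CCAAT (the CCAAT box), TATAAA (the TATA box), ACAAT (a core shared by SOX factors) or TGANTCA (the AP-1 site), and no marked match overlapped another.
Col8a1: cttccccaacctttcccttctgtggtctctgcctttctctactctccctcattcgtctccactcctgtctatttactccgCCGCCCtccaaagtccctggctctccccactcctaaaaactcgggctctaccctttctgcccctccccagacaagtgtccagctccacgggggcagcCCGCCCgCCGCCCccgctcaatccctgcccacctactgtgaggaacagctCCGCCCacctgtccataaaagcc
Col18a1: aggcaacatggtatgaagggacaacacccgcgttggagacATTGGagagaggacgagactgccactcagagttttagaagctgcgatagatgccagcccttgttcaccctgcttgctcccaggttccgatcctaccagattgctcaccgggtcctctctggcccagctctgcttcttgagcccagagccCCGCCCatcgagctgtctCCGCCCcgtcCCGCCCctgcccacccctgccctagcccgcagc
Col5a3: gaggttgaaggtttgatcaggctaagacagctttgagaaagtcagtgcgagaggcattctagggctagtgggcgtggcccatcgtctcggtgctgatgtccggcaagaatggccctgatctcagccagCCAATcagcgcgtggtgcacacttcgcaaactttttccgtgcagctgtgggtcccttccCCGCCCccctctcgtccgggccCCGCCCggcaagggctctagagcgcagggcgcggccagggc
Col23a1: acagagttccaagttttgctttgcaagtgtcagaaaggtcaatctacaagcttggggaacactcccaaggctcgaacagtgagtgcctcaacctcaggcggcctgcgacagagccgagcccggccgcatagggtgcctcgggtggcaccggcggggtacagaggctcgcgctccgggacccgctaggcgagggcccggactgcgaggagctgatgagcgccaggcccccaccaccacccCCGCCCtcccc
Col28a1: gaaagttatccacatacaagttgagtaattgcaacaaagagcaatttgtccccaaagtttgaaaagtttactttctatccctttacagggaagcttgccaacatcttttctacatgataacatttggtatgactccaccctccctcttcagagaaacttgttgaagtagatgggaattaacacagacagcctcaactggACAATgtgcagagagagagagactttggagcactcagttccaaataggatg
The Col8a1 window held 4 GC boxes, the Col18a1 window (the first of its annotated starts) 3 GC boxes and a CCAAT box, the Col5a3 window 2 GC boxes and a CCAAT box, and the Col23a1 window 1 GC box. The window of another annotated start of Col18a1 (chr10:77113706-77113955, minus) held none of these matches. Which start these cells use was not examined. The Col28a1 window held no GC box and 1 ACAAT. A window was found for 35 of the 44 chains, and counting alternative starts there were 38 windows. Of these, 22 (57.9%) held GGGCGG against 32.7% of all 32851 RefSeq windows of that length, 13 (34.2%) held CCAAT against 33.8%, 5 (13.2%) held TATAAA against 12.4%, 2 (5.26%) held ACAAT against 27.7% and 1 (2.63%) held TGANTCA against 6.75%. A match is a description of these letters and not a binding site. In the build of the deposited counts (mm9, NCBIM37), the 44 genes include pairs that start within a short distance of each other, such as Col4a3 and Col4a4, which lie head to head 71 bases apart, and Col4a1 and Col4a2, whose starts overlap by 22 bases.

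Collagen made up 0.836% to 3.55% of all gene counts in pooled iSCs, 2.58% to 3.47% in dSCs and 2.44% to 4.25% in bSCs. Most of it came from 3 fibrillar chains. Col1a1, Col1a2 and Col3a1 together took 70.7% ± 9.27 (SD, n = 4) of the collagen counts in iSCs, 73.0% ± 1.00 in dSCs and 72.7% ± 2.38 in bSCs. By class, the summed CPM of the fibrillar chains was 15382 ± 11089 in iSCs, 25803 ± 3732 in dSCs and 26238 ± 7610 in bSCs, and that of the basement membrane chains was 1337 ± 234, 1587 ± 210 and 2060 ± 467. The FACITs summed to 455 ± 67.7, 655 ± 83.9 and 545 ± 49.4 CPM, and the other chains to 1740 ± 982, 4144 ± 624 and 3418 ± 1334 CPM. Per kilobase of transcript, Col3a1 was the highest chain in iSCs (1084 ± 947 CPM per kb) and dSCs (1666 ± 293), and Col1a1 was the highest in bSCs (1676 ± 604). Col1a2 was next in all 3 regions, and Col6a1 (151 to 306 CPM per kb as group means) followed these 3 fibrillar chains. In iSCs and bSCs the differences among these 3 chains were of the size of the spread between libraries. In dSCs the gap from Col3a1 to Col1a1 (1113 ± 110 CPM per kb) was larger than the SD of either. None of these differences was tested.

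**Figure D1:**
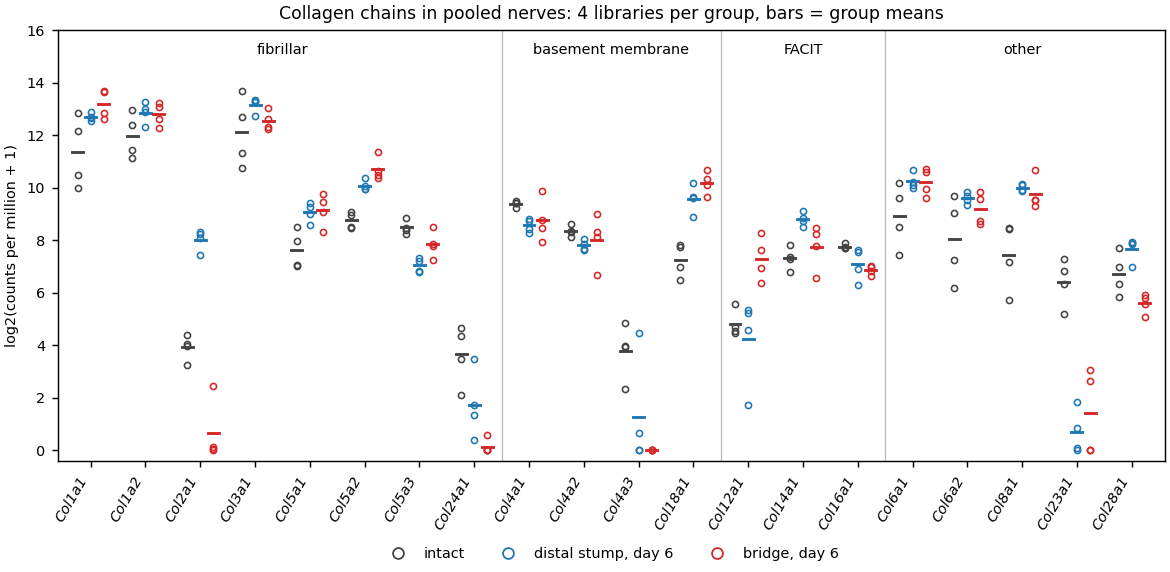
Level of the 20 chains named by rule in the 12 pooled-nerve libraries. The vertical axis is log2 of CPM plus 1, each circle is a library, bars are the means of 4 libraries, and colours separate iSCs (grey), dSCs (blue) and bSCs (red). Col2a1 separates the 3 regions without overlap, and Col4a3 is at 0 in all 4 bSC libraries.

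In the pooled nerves, 36 of the 44 chains passed the filter on low counts and were tested with edgeR's quasi-likelihood test with Benjamini-Hochberg adjustment over all 13751 genes. Of these, 7 were called between dSCs and iSCs (5 higher and 2 lower), against 5.32% of all genes (2.63% higher and 2.69% lower), 10 between bSCs and iSCs (5 higher and 5 lower), against 14.7% (7.24% and 7.46%), and 3 between bSCs and dSCs (1 higher and 2 lower), against 5.43% (2.31% and 3.11%). Leaving out 1 library at a time gave 3 to 8, 3 to 12 and 2 to 7 chains, respectively. The first count was 3 without iSC library 1 or dSC library 1, 2 or 5 and 4 without iSC library 2 or 4. The second was 3 without iSC library 1 or bSC library 5, 5 without iSC library 2 and 6 without iSC library 4 or bSC library 2, and the third was 7 without bSC library 1. DESeq2 called 10, 15 and 9 chains, against 10.2%, 22.9% and 14.3% of all genes. The chains it added were Col5a1, Col6a3 and Col11a1 in dSCs, Col1a1, Col4a4, Col6a3, Col23a1 and Col27a1 in bSCs, and Col4a3, Col4a4, Col5a3, Col24a1, Col26a1 and Col27a1 between bSCs and dSCs. The median log2 fold change over the 36 was 0.42, -0.51 and -0.59 in these comparisons, and over all genes -0.02, -0.16 and -0.07. All 3 comparisons use the same 12 libraries, so each region enters a pair of them. Counted without a test, 7 chains were higher and 5 lower in every dSC library than in any iSC library, where all genes gave 7.56% and 9.41%. For bSCs against iSCs these counts were 4 and 7 (10.5% and 14.5% of all genes), and for bSCs against dSCs 2 and 6 (6.77% and 8.62%). The 8 chains left untested were Col4a6, Col6a4, Col9a1, Col10a1, Col13a1, Col17a1, Col19a1 and Col22a1, none above 9.95 CPM in a pooled library, and Col19a1 had no count in any of the 12.

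**Figure D2:**
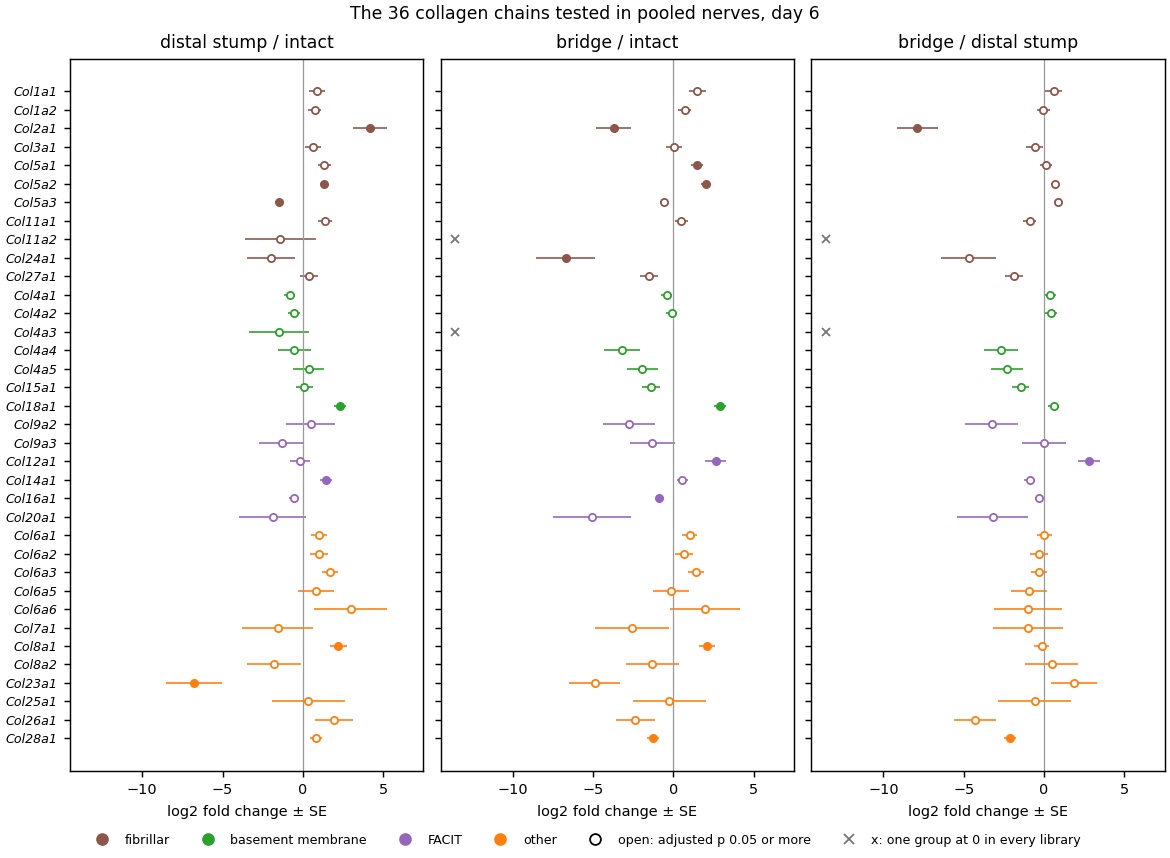
Log2 fold changes of the 36 tested chains in the 3 comparisons of the pooled nerves, by class. Points are edgeR estimates and bars their standard errors, filled points have an adjusted p under 0.05, and crosses at the left edge mark Col11a2 and Col4a3 where all 4 bSC libraries were at 0, so that no fold is drawn. Filled points lie on both sides of 0 in every panel.

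Among the major fibrillar chains, Col1a1, Col1a2 and Col3a1 had wide ranges in iSCs, and none was called by edgeR in any pooled comparison. Col1a1, which encodes the main chain of type I collagen (11:94797538-94814356, plus strand, mm9), was at 1441, 1020, 4618 and 7304 CPM in iSCs, at 5939, 7488, 6591 and 6386 in dSCs and at 13323, 6318, 7419 and 12689 in bSCs. The highest iSC library lay within the range of the injured libraries. For bSCs against iSCs the log2 fold change was 1.47 ± 0.53 (SE) with an adjusted p of 0.0790, and for dSCs 0.88 ± 0.52 with an adjusted p of 0.474. Col3a1, the single chain of type III collagen, was at 2541, 1741, 6583 and 13271 CPM in iSCs, 10301, 10046, 6839 and 9888 in dSCs and 8449, 4839, 5135 and 6277 in bSCs. Its highest and its lowest value were both in iSCs. Col1a2, the partner of Col1a1 in the type I trimer, was at 2780, 2253, 5367 and 7964 CPM in iSCs, 9787, 7499, 5157 and 8193 in dSCs and 8714, 6297, 4930 and 9726 in bSCs. The groups overlapped. The 4 iSC libraries had the same order for the 3 genes as for the sum of the 10 fibroblast genes, which was 12231, 6822, 22035 and 31286 CPM in the order of the Col1a1 values. The part of these cells in the iSC values was not tested.

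The ratio of Col1a1 to Col1a2 counts was lowest in iSCs, with a mean log2 of -0.61 ± 0.51 (SD, n = 4), against -0.18 ± 0.46 in dSCs and 0.40 ± 0.28 in bSCs. The iSC and bSC libraries did not overlap in this ratio. In bSCs the sum of fibroblast genes was lower than in either other region. Of the 10, 3 (Lum, Dcn and Pi16) were called lower than in iSCs and than in dSCs, where 7.46% and 3.11% of all genes were. Dcn was at 1650 ± 921 CPM against 12541 ± 7768 and 12104 ± 2468. The part of fibroblast RNA in the Col1a1 values of bSCs was not tested.

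The chains of type V collagen, which sits inside type I fibrils and limits their width, moved in different directions. Col5a2 (1:45431166-45560127, minus) was at 364, 349, 546 and 503 CPM in iSCs, 1309, 996, 995 and 1070 in dSCs and 1451, 1613, 1322 and 2636 in bSCs. Every injured library was above every iSC library, and every bSC library above every dSC library. The log2 fold change was 1.31 ± 0.27 in dSCs (adjusted p = 0.0139) and 1.99 ± 0.27 in bSCs (adjusted p = 0.000554), while the difference between bSCs and dSCs, 0.68 ± 0.26, had an adjusted p of 0.145. Both calls held without any 1 library. Col5a1 was at 131, 128, 252 and 362 CPM in iSCs, 693, 619, 386 and 511 in dSCs and 703, 537, 316 and 858 in bSCs. It rose in bSCs by 1.47 ± 0.39 (adjusted p = 0.0218), and in dSCs its 1.34 ± 0.38 had an adjusted p of 0.0628 although the libraries did not overlap. The call in bSCs was lost without iSC library 1 or 2 or bSC library 5, with adjusted p-values up to 0.0637. Its exons overlap genes annotated on the opposite strand, as do those of Col1a1, Col4a1, Col4a2, Col15a1 and some other chains. Counts without strand information do not separate such genes.

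Col5a3, a type V chain with a more restricted distribution than the other two (9:20574494-20619511, minus), went the other way. It was at 337, 300, 353 and 465 CPM in iSCs, at 160, 112, 111 and 147 in dSCs and at 220, 231, 151 and 366 in bSCs. All dSC libraries were below all iSC libraries, and the bSC libraries reached into the iSC range. The fall in dSCs was called (-1.46 ± 0.28, adjusted p = 0.00928), that in bSCs was not (-0.59 ± 0.27, adjusted p = 0.175), and the difference between bSCs and dSCs was 0.87 ± 0.27 (adjusted p = 0.0810). The call in dSCs held without any 1 library. The balance of Col5a3 to Col5a1 turned over with injury. Its mean log2 ratio was 0.86 ± 0.51 in iSCs, -2.04 ± 0.32 in dSCs and -1.30 ± 0.26 in bSCs, with every iSC library above 0 and every injured library below -1. In single nerves the same ratio was -0.42 ± 0.67 in iSCs (n = 5), where 1 library was above 0, and between -0.88 ± 0.72 and -1.70 ± 0.50 in the means of the injured groups from day 4 on (n = 3 each).

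**Figure D3:**
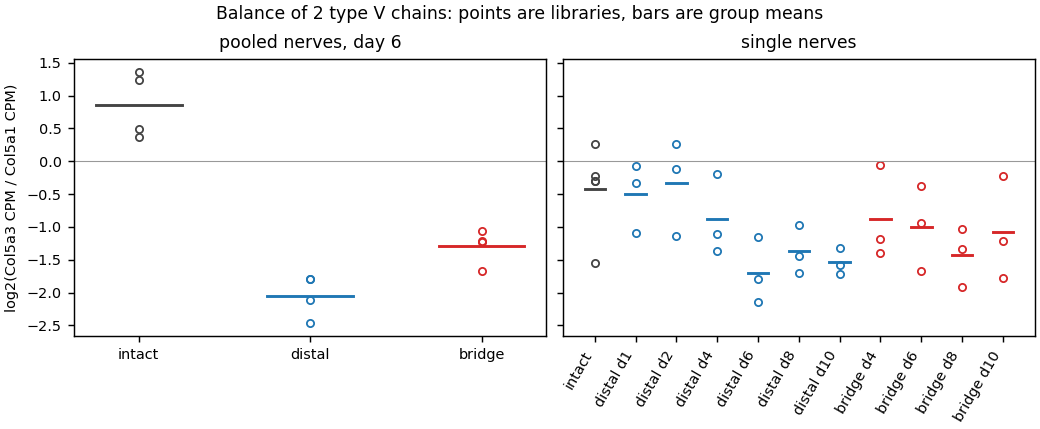
Log2 ratio of Col5a3 to Col5a1 in each library of the pooled nerves (left) and the single nerves (right). Circles are libraries, bars are group means and the horizontal line marks equal counts of both genes, which differ in transcript length. Pooled iSCs lie above 0 in 4 of 4 libraries and single-nerve iSCs in 1 of 5.

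Col2a1, the chain of the cartilage fibril (15:97806033-97835155, minus), separated all 3 regions. It was at 14.9, 8.55, 19.9 and 15.8 CPM in iSCs, at 302, 316, 174 and 273 in dSCs and at 0.0448, 4.54, 0.0859 and 0 in bSCs. No library of a region overlapped with another region, and its mean was 18.0-fold higher in dSCs than in iSCs and 12.7-fold lower in bSCs than in iSCs. The log2 fold change was 4.17 ± 1.06 for dSCs against iSCs (adjusted p = 0.0370), -3.71 ± 1.08 for bSCs against iSCs (adjusted p = 0.0345) and -7.89 ± 1.27 for bSCs against dSCs (adjusted p = 0.00545). With the pool as a block, the last was -9.08 ± 1.44 (adjusted p = 0.0306), and the comparisons with iSCs gave adjusted p-values of 0.132 (dSCs) and 0.0859 (bSCs). The block groups libraries that carry the same animal in the labels. The call between dSCs and iSCs was lost without any 1 of the 8 libraries, with adjusted p-values up to 0.114, and that between bSCs and iSCs without iSC library 1, 4 or 5 or bSC library 1, 3 or 5, with adjusted p-values up to 0.0753. Without bSC library 2, at 4.54 CPM, the log2 fold changes of bSCs were -8.38 against iSCs and -12.54 against dSCs, and the difference from dSCs was called without any 1 library.

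Of the minor fibrillar chains, Col24a1 was called lower in bSCs than in iSCs. It was at 19.7, 10.3, 24.4 and 3.31 CPM in iSCs, at 0.306, 10.2, 2.29 and 1.57 in dSCs and at 0.493, 0, 0 and 0 in bSCs (-6.70 ± 1.85, adjusted p = 0.0273, and 0.0871 with the pool as a block). Only bSC library 1 had a count, and without it the fitted log2 fold change was -10.70. The call was lost without iSC library 1, 2 or 4 or bSC library 2, 3 or 5, with adjusted p-values up to 0.0696. Col11a1, which forms mixed fibrils with type V chains, was at 44.5 to 110 CPM in iSCs, 100 to 282 in dSCs and 54.9 to 172 in bSCs, without a call by edgeR. DESeq2 called it in dSCs against iSCs (1.40, adjusted p = 0.0239). Col27a1, named here after its values were seen, ranged from 6.05 to 24.9 CPM in bSCs, below the 29.2 to 49.3 of iSCs in every library, with an adjusted p of 0.0914.

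Among the basement membrane chains, Col18a1, whose C-terminal fragment is endostatin (10:76514923-76629293, minus), rose in both injured regions. It was at 89.2, 125, 216 and 225 CPM in iSCs, at 806, 477, 1166 and 775 in dSCs and at 1090, 811, 1303 and 1640 in bSCs. Every injured library was above every iSC library, with means 4.92-fold and 7.39-fold higher in dSCs and bSCs. The log2 fold changes were 2.30 ± 0.37 (adjusted p = 0.00306) and 2.89 ± 0.38 (adjusted p = 0.000473), and both calls held without any 1 library.

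Col4a1 and Col4a2, which form the ordinary type IV network, did not follow Col18a1. Col4a1 was at 680, 601, 714 and 681 CPM in iSCs, 451, 427, 310 and 341 in dSCs and 950, 354, 435 and 243 in bSCs, and Col4a2 at 319, 276, 392 and 326, at 264, 232, 196 and 204 and at 516, 316, 275 and 102. All dSC libraries were below all iSC libraries for both genes, yet neither comparison passed (log2 fold change of Col4a1 -0.81 ± 0.35, adjusted p = 0.247). The genes share their start region. The mean log2 ratio of Col4a1 to Col4a2 was 1.04 ± 0.12 in iSCs, 0.76 ± 0.09 in dSCs and 0.74 ± 0.46 in bSCs. Col15a1, like Col18a1 a multiplexin, had 34.9 to 222 CPM in iSCs and 22.7 to 79.0 CPM in bSCs, below the 82.9 to 144 of every dSC library, without a call (adjusted p = 0.137).

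Col4a3, a chain of the specialised network best known from the kidney glomerulus (1:82583496-82718634, plus), was at 27.9, 4.07, 14.4 and 14.9 CPM in iSCs, at 0, 21.4, 0 and 0.597 in dSCs and at 0 in all 4 bSC libraries. Its bSC level was at least 81.5-fold lower than the iSC mean, taking 3 counts per library as the floor that a count of 0 allows. Over both experiments, 15 of 16 bSC libraries had no count and the other had 2, against 1 of 9 iSC libraries and 8 of 22 dSC libraries with no count. edgeR called it lower in bSCs than in iSCs (adjusted p = 0.0301, and 0.116 with the pool as a block), while the difference between bSCs and dSCs had an adjusted p of 0.0750. The pooled bSC libraries also had fewer genes detected than every iSC library, and the part of this in the zeros was not tested. Col4a4, its partner in the trimer and its head-to-head neighbour, was at 18.1 to 32.8 CPM in iSCs, 3.62 to 32.1 in dSCs and 0 to 4.24 in bSCs, below every iSC library but without a call (adjusted p = 0.0687). The Col4a3 call was lost without iSC library 1 or 4 or any bSC library, with adjusted p-values up to 0.0660.

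Among the FACITs, Col12a1, a FACIT of stressed and healing connective tissue (9:79446798-79566638, minus), was high in bSCs. It was at 21.4, 22.1, 46.6 and 24.8 CPM in iSCs, at 39.5, 2.29, 23.3 and 37 in dSCs and at 123, 195, 81.2 and 307 in bSCs. All bSC libraries were above all others, with means 6.14-fold above iSCs and 6.91-fold above dSCs. The log2 fold change was 2.62 ± 0.67 against iSCs (adjusted p = 0.0195, and 0.0592 with the pool as a block) and 2.79 ± 0.68 against dSCs (adjusted p = 0.0317, and 0.0885 with the block). The call against iSCs was lost without iSC library 1 or 2 or bSC library 5 (adjusted p up to 0.0573), and that against dSCs without bSC library 2 or 5 or dSC library 1, 3 or 5 (adjusted p up to 0.0843). Per kilobase, its 15.3 ± 8.60 CPM in bSCs remained far below the type I chains, at 1387 and more.

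Col14a1 and Col16a1 showed other patterns. Col14a1, a FACIT that regulates fibril assembly, was at 165, 110, 228 and 157 CPM in iSCs, 460, 548, 359 and 428 in dSCs and 352, 217, 305 and 93.6 in bSCs, and rose in dSCs by 1.44 ± 0.36 (adjusted p = 0.0354, and 0.0941 with the block). Every dSC library was above every iSC and bSC library, and the call was lost without any 1 of the 8 libraries other than dSC library 3, with adjusted p-values up to 0.109. Col16a1 was at 212, 207, 207 and 236 CPM in iSCs, 195, 78.8, 119 and 185 in dSCs and 130, 127, 114 and 98.9 in bSCs, with a log2 fold change in bSCs of -0.88 ± 0.27 (adjusted p = 0.0441, and 0.162 with the block). That call was lost without any 1 of the 8 libraries, with adjusted p-values up to 0.100. In single nerves it pointed the other way, as described for the time course.

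Of the other chains, Col8a1, a short-chain collagen of vessel walls and Descemet's membrane (16:57624371-57754850, minus), rose in both injured regions. It was at 144, 52.7, 343 and 351 CPM in iSCs, 1104, 964, 944 and 1122 in dSCs and 746, 740, 626 and 1626 in bSCs. No injured library reached into the iSC range. The log2 fold change was 2.22 ± 0.50 in dSCs (adjusted p = 0.0231) and 2.07 ± 0.50 in bSCs (adjusted p = 0.0141). The bSC call held without any 1 library, and the dSC call was lost without iSC library 1 or dSC library 1, 2 or 5, with adjusted p-values up to 0.0739. Macrophage genes were also higher in the dSC libraries than in any iSC library, and their part in the Col8a1 values was not tested.

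The type VI chains Col6a1 and Col6a2, which form beaded filaments around cells, were at 366, 171, 777 and 1158 CPM and at 151, 71.7, 532 and 815 CPM in iSCs, a spread like that of the type I chains and in the same order of libraries. In dSCs they were at 1116, 1633, 1012 and 1203 and at 907, 817, 644 and 751, and in bSCs at 1564, 998, 787 and 1676 and at 753, 427, 395 and 905. Neither was called in any comparison. The ratio of Col6a1 to Col6a2 varied less across the 47 mouse libraries (SD of its log2, 0.32) than either gene (1.11 and 1.22), as a description of genes that share libraries and depth. Col6a3, the long chain of the same trimer, named here after its values were seen, was at 64.7 to 355 CPM in iSCs, 337 to 832 in dSCs and 207 to 792 in bSCs. The main fit did not call it in pooled nerves, and DESeq2 called it in dSCs and in bSCs against iSCs. With the pool as a block it was called in dSCs (2.29 ± 0.46, adjusted p = 0.0409) and in bSCs (1.82 ± 0.44, adjusted p = 0.0425).

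Col28a1, a chain reported mainly from peripheral nerve (6:7947808-8142617, minus), separated the injured regions. It was at 125, 209, 80.0 and 56.5 CPM in iSCs, 242, 234, 125 and 240 in dSCs and 47.0, 32.7, 59.7 and 55.1 in bSCs. Every dSC library was above every bSC library, and the means differed 4.32-fold. The log2 fold change of bSCs against dSCs was -2.11 ± 0.39 (adjusted p = 0.0114, and 0.0566 with the block), a call that held without any 1 library. Against iSCs it was -1.27 ± 0.38 in bSCs (adjusted p = 0.0402, and 0.175 with the block) and 0.84 ± 0.38 in dSCs (adjusted p = 0.288). The former call was lost without iSC library 1 or 2 or any bSC library, with adjusted p-values up to 0.148.

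Col23a1, a transmembrane collagen (11:51103422-51397420, plus), was lower in the injured regions of pooled nerves. It was at 155, 114, 79.7 and 35.5 CPM in iSCs, at 0.0765, 0, 2.59 and 0.821 in dSCs and at 0, 0, 5.33 and 7.42 in bSCs. No injured library came near the lowest iSC library. The difference was called for dSCs (-6.78 ± 1.75, adjusted p = 0.0402) and not for bSCs (-4.91 ± 1.59, adjusted p = 0.0540), where the block gave an adjusted p of 0.0325. The dSC call was lost without iSC library 1, 2 or 4 or dSC library 1, 2 or 5, with adjusted p-values up to 0.118. In single nerves its mean was only 7.5 ± 7.15 CPM in iSCs (SD, n = 5), against 13.7 and 9.11 in dSCs on days 1 and 2 and 1.32, 7.02, 6.18 and 1.92 on days 4, 6, 8 and 10. With edgeR's own filter the difference of dSCs from iSCs over days 4 to 10 there was -1.18 ± 1.5 (adjusted p = 0.746). Col26a1, named here after its values were seen, resembled Col2a1 in its regions, with 25.5 to 84.6 CPM in iSCs, 124 to 356 in dSCs and 0 to 35.2 in bSCs, but was not called (bSCs against dSCs, -4.32 ± 1.31, adjusted p = 0.0714). The remaining members of this class were at most 33.6 CPM in any pooled library.

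The single-nerve time course followed the chains from the first day. Here 19 of the 44 chains passed a minimum of 100 counts in 85% or more of libraries and were tested among 7171 genes, so Col2a1, Col4a3, Col23a1 and Col24a1 were not among them. At days 1 and 2, 0 of 19 chains were called in dSCs against iSCs by edgeR, with 0 and 1 at an unadjusted p under 0.05, where 0.153% and 1.00% of all genes were called. DESeq2 also called 0 on both days. From day 4 the count in dSCs was 4 at day 4 (4.74% of all genes, 2.84% higher), 2 at day 6 (1.62%, 1.13% higher), 1 at day 8 (0.711%, 0.516% higher) and 1 at day 10 (0.683%, 0.544% higher). In bSCs it was 6 at day 4 (4.06%, 2.47% higher), 8 at day 6 (3.54%, 1.94% higher), 0 at day 8 (0.683%, with 11 at an unadjusted p under 0.05 and 4 called by DESeq2) and 4 at day 10 (2.52%, 1.46% higher). All of these were higher than in iSCs. Averaged over days 4 to 10, 6 chains were called in dSCs (9.61% of all genes, 3.19% higher) and 9 in bSCs (10.1%, 3.63% higher), all higher, with median log2 fold changes over the 19 of 1.08 and 1.31 against -0.07 and -0.06 over all genes. DESeq2 called 10 (13.9% of all genes) and 11 (14.5%). Of the genes of other cells tested in the same fits, 7 of 7 macrophage genes were called higher in dSCs and 5 of 7 in bSCs, and 2 of 7 endothelial genes lower in each. Of 10 fibroblast genes, 1 was called higher and 1 lower in dSCs, and 2 lower in bSCs. Of 5 mural cell genes, 2 were called lower in dSCs and 1 in bSCs, and 1 of 2 perineurial genes was lower in each. The fibroblast sum was 15066 to 30187 CPM in iSCs, 8873 to 30943 in dSCs of days 4 to 10 and 4036 to 20120 in bSCs. The macrophage sum was 263 to 983 CPM in iSCs, 1920 to 12504 in dSCs of days 4 to 10 and 767 to 10548 in bSCs. The part of these other cells in the chains was not tested. Between bSCs and dSCs none of the 19 chains was called (0.112% of all genes, 2 at an unadjusted p under 0.05), and DESeq2 called 1. Over the dSC libraries of days 1 to 10, edgeR called 0 chains as different between any days (0.237% of all genes, 8 at an unadjusted p under 0.05, and 6 called by DESeq2). It called 0 for a bSC to dSC difference that depended on the day (0% of all genes, 1 at an unadjusted p under 0.05, and 0 by DESeq2).

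**Figure D4:**
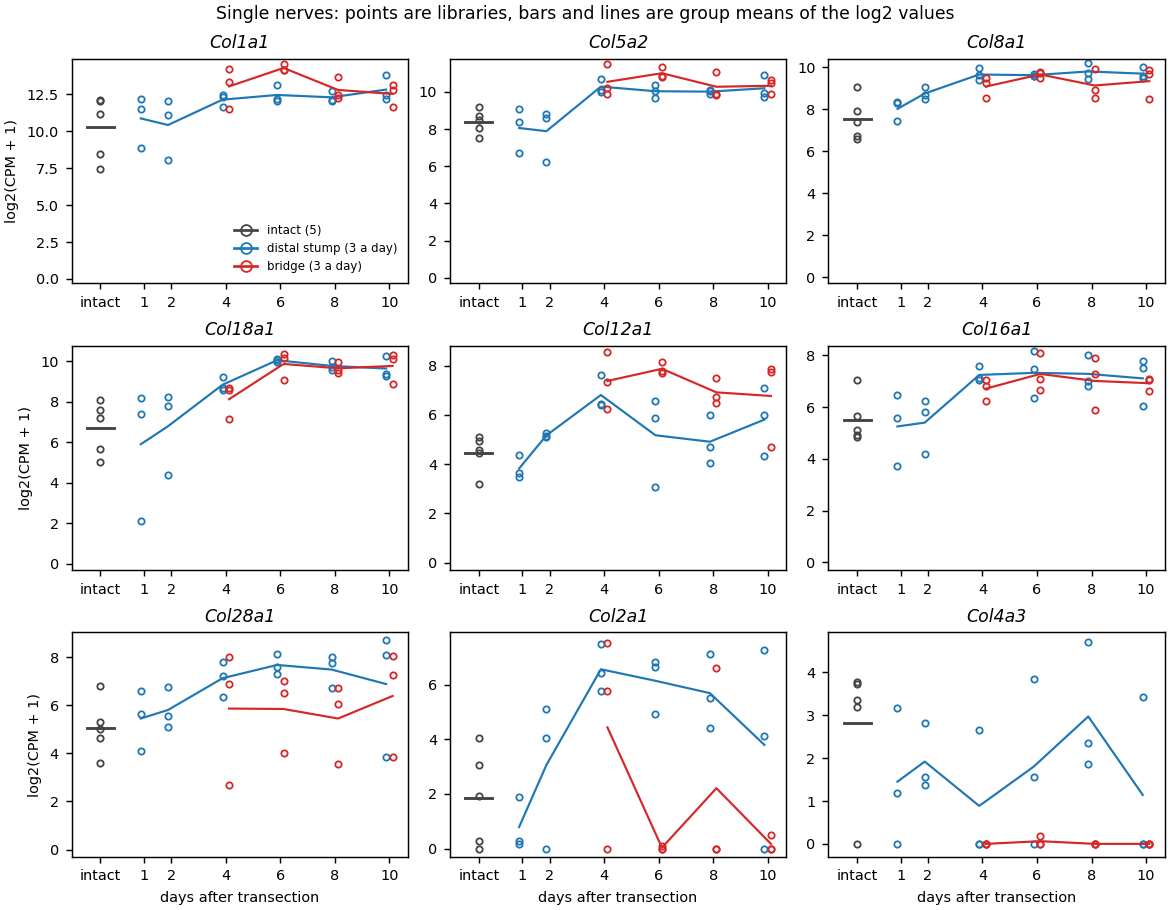
Level of 9 chains in the single-nerve libraries by day after transection. The vertical axes are log2 of CPM plus 1, circles are libraries, the grey bar is the mean of 5 iSC libraries, and lines join the means of 3 dSC (blue) or 3 bSC (red) libraries per day. Col8a1 and Col18a1 rise in both regions, and Col4a3 is at or near 0 in all 12 bSC libraries.

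Col8a1 was the chain called on most days. Its iSC libraries were at 105, 95.7, 528, 237 and 165 CPM, and its dSC libraries at 314, 170 and 323 on day 1, 361, 542 and 406 on day 2, and 788, 668 and 997 on day 4. From day 4 on every dSC library was above every iSC library. The log2 fold change in dSCs was 1.85 ± 0.43 on day 4 (adjusted p = 0.0108), 1.80 ± 0.43 on day 6 (0.0250), 2.01 ± 0.43 on day 8 (0.0157) and 1.89 ± 0.43 on day 10 (0.0242). Over days 4 to 10 it was 1.89 ± 0.35 in dSCs (adjusted p = 0.000946) and 1.56 ± 0.35 in bSCs (adjusted p = 0.00403).

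Col18a1 rose as well, and its dSC libraries of day 4 were below those of days 6 to 10, although edgeR called no difference between dSC days. Its iSC libraries were at 32.0 to 270 CPM, and its dSC libraries at 386 to 601 on day 4, 1006 to 1097 on day 6, 753 to 1035 on day 8 and 620 to 1242 on day 10. On day 4 the bSC libraries were at 142 to 403 CPM, of which 1 was within the iSC range, and on day 6 at 539 to 1306. It was called on day 6 in dSCs (2.94 ± 0.75, adjusted p = 0.0357) and on days 6 (2.86 ± 0.74, adjusted p = 0.0265) and 10 (2.78 ± 0.74, adjusted p = 0.0366) in bSCs. Over days 4 to 10 the log2 fold change was 2.50 ± 0.63 in dSCs (adjusted p = 0.0115) and 2.34 ± 0.62 in bSCs (adjusted p = 0.0144). The bSC call was lost without iSC library 0 or 1, with adjusted p-values up to 0.0527.

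Among the single-nerve groups, the mean of the summed fibrillar class was highest in bSCs at day 6. Col1a1 was at 175, 353, 4492, 4336 and 2260 CPM in iSCs, at 4711, 4276 and 8863 in dSCs on day 6 and at 18254, 18493 and 23738 in bSCs on the same day. No other library of the time course reached these 3 except a day 4 bSC library at 19357, and by day 10 the bSC libraries were back at 3235 to 9119. Over days 4 to 10, Col1a1 (2.15 ± 0.66, adjusted p = 0.0356) and Col1a2 (1.48 ± 0.36, adjusted p = 0.00794) were called in bSCs against iSCs and not in dSCs, and the difference between bSCs and dSCs had adjusted p-values of 0.757 and 0.613. The Col1a1 call was lost without iSC library 0, 1 or 5, the day 4 bSC library 2 or the day 8 bSC library 0, with adjusted p-values up to 0.106. The summed fibrillar class stood at 12001 ± 5720 CPM in iSCs (n = 5), 23497 ± 6318 in dSCs and 50638 ± 7258 in bSCs on day 6 (n = 3 each), and at 27071 ± 12598 and 20235 ± 6380 on day 10. In all, collagen took 5.20% to 6.63% of gene counts in bSCs on day 6, against 0.318% to 2.33% in iSCs. In the pooled nerves of day 6, the fibrillar sum was 26238 ± 7610 CPM in bSCs and 25803 ± 3732 in dSCs (n = 4 each).

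**Figure D5:**
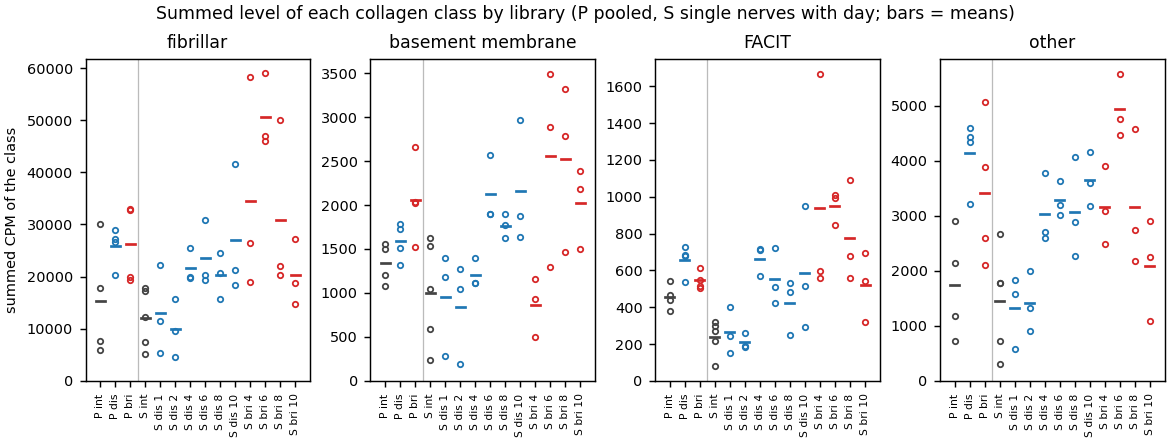
Summed CPM of the 4 collagen classes in every mouse library. Labels give the experiment (P pooled, S single nerves), region (int, dis, bri) and day, circles are libraries and bars are group means. The fibrillar sum of single-nerve bSCs on day 6 lies between 45989 and 59002 CPM in its 3 libraries.

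Col5a1 and Col5a2 rose again. Col5a2 was at 181 to 579 CPM in iSCs, at 75.1 to 541 in dSCs on days 1 and 2, at 830 to 1959 in dSCs and at 908 to 2908 in bSCs from day 4 to day 10. No library after day 2 overlapped with iSCs. Over days 4 to 10 it rose by 1.68 ± 0.40 in dSCs (adjusted p = 0.00758) and 2.14 ± 0.41 in bSCs (adjusted p = 0.00106), and Col5a1 by 1.18 ± 0.32 (adjusted p = 0.0188) and 1.41 ± 0.33 (adjusted p = 0.00567). Col5a3 had no call in single nerves, with a log2 fold change in bSCs of 0.79 ± 0.39 (adjusted p = 0.207), opposite in sign to its value in the pooled bSCs. Col6a3 was called in both regions (0.95 ± 0.29 in dSCs, adjusted p = 0.0357, and 1.25 ± 0.30 in bSCs, adjusted p = 0.00690). Without iSC library 0, the dSC calls of Col5a1 (adjusted p = 0.0763) and Col6a3 (adjusted p = 0.145) were lost, and that of Col6a3 also without 7 other libraries of the 17.

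The FACIT Col12a1 was at 29.8, 23.1, 32.9, 20.7 and 8.25 CPM in iSCs. In bSCs it was at 161, 75.1 and 369 on day 4, at 219, 206 and 279 on day 6, at 180, 106 and 89.1 on day 8 and at 234, 24.8 and 211 on day 10. All of these but the day 10 library at 24.8 CPM lay above every iSC library. It rose in bSCs by 2.93 ± 0.59 over days 4 to 10 (adjusted p = 0.00155), and in dSCs by 2.39 ± 0.67 on day 4 (adjusted p = 0.0354), when its dSC libraries were at 194, 84.7 and 82.6 CPM. The difference between bSCs and dSCs, 1.47 ± 0.39, had an adjusted p of 0.172 over all libraries and was called with the animal as a block (2.13 ± 0.41, adjusted p = 0.0127), where bSCs were higher in 8 of 10 animals. No other chain was called in that blocked comparison, where 6.41% of all genes were called.

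Col14a1 was called in bSCs (1.64 ± 0.50, adjusted p = 0.0334), where pooled nerves had given a call in dSCs, and the call was lost without iSC library 3 or 4, the day 4 bSC library 2 or the day 8 bSC library 0 (adjusted p up to 0.0646). Col16a1 rose in single-nerve dSCs by 1.59 ± 0.47 (adjusted p = 0.0319), from 27.5 to 131 CPM in iSCs to 64.7 to 284 in dSCs of days 4 to 10, whereas in pooled dSCs and bSCs it lay below its iSC level of 207 to 236. The iSC libraries of the pooled and the single nerves did not overlap for this chain, whereas the injured ones did. Its single-nerve call was lost without iSC library 0, 1, 3 or 5 or the day 8 dSC library 2, with adjusted p-values up to 0.102. For the 19 chains tested in both experiments, the sign of the pooled day 6 fold change was set against that of single nerves over days 4 to 10. The sign was shared by 14 for dSCs against iSCs, where all genes gave 61.0%. It was shared by 14 for bSCs against iSCs (60.5%) and by 13 for bSCs against dSCs (70.1%). With day 6 alone in single nerves, it was shared by 14 (60.1%), 13 (58.3%) and 10 (61.7%) in the same order.

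Col28a1 and Col2a1 again separated the injured regions in most animals. Col28a1 was at 279, 193 and 158 CPM in dSCs and 15.3, 89.9 and 128 in bSCs on day 6, and was lower in bSCs in 9 of 10 animals. Its difference over days 4 to 10, -1.02 ± 0.53, was not called (adjusted p = 0.742, and 0.201 with the block). Col2a1 had 0.136 to 34.0 CPM in all but 1 dSC library of days 1 and 2, where it had no count, and 54.4, 180 and 84.9 CPM on day 4, 101, 113 and 29.8 on day 6, 45.4, 20.5 and 139 on day 8 and 0, 16.4 and 154 on day 10. In bSCs, 7 of 12 libraries had no count, 2 were under 0.5 CPM and the other 3 were at 54.0, 186 and 98.2. Col2a1 was lower in bSCs in 9 of 10 animals. Tested with edgeR's own filter, under which 43 chains and 15519 genes remained, its difference was -5.23 ± 1.27 with an adjusted p of 0.0906, and that of Col4a3 was called (adjusted p = 0.0479, where 0.103% of all genes were called), with 15 of the 16 bSC libraries of both experiments at 0. Under that filter, 15 chains were called in bSCs against iSCs, against 9.34% of all genes.

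The bSC library at 186 CPM of Col2a1 and a dSC library at 180 CPM came from the same animal at day 4 and stood out among all 1081 pairs of libraries. Their counts differed by a chi-square per degree of freedom of 3.90, where the next lowest pair had 46.2 and lanes of 1 library 1.12 to 1.30, and the Pearson correlation of their log2 CPM across genes was 0.998. Without both libraries, 6 chains were called in dSCs (9.16% of all genes) and 9 in bSCs (9.35%) averaged over days 4 to 10. None of these averaged calls was lost. On day 4 alone, 1 chain was called in dSCs (against 4, 1.73% of all genes) and 4 in bSCs (against 6, 2.09%). In addition, 4 single-nerve libraries had the fewest genes detected (10042 to 11138), of which 2 were iSCs, 1 dSCs of day 1 and 1 dSCs of day 2. Without these 4 libraries, 3 chains were called in dSCs (against 6), where 6.33% of all genes were, and 7 in bSCs (against 9), where 8.34% were. Leaving out iSC library 0 alone also gave 3 in dSCs. A day 10 bSC library (number 0) carries label fields that name different animals, and it was left out of the fit with the animal as a block. No call of days 4 to 10 was lost without it.

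The machinery that makes collagen was examined with lists of 15 modifying enzymes, 6 chaperones and export factors and 8 genes of propeptide processing. In pooled bSCs against iSCs, where 14.7% of all genes were called and 7.24% were higher, 6 of 15 modifying enzymes and 1 of 5 tested chaperones were called, all higher, and 0 of 7 processing genes (2 at an unadjusted p under 0.05). The prolyl hydroxylase subunit P4hb rose by 1.23 ± 0.25 (adjusted p = 0.00563), the lysyl hydroxylase Plod2 by 1.63 ± 0.40 (adjusted p = 0.0161), the isomerase Ppib by 1.12 ± 0.25 (adjusted p = 0.0100) and the collagen chaperone Fkbp10 by 1.61 ± 0.37 (adjusted p = 0.0102). Against dSCs, Fkbp10 (1.77 ± 0.37, adjusted p = 0.0174) and the lysyl hydroxylase Plod1 (0.73 ± 0.20, adjusted p = 0.0496) were called higher in bSCs, where 5.43% of all genes were called. In pooled dSCs against iSCs, where only 5.32% of all genes were called, 0 of 15, 0 of 5 and 0 of 7 genes were called by edgeR. At an unadjusted p under 0.05 there were 4, 0 and 1. The median log2 fold change of the 15 enzymes was 0.83 in bSCs and 0.18 in dSCs. In single nerves, Plod1 and Fkbp10 were again called in bSCs (1.38 ± 0.27 and 1.58 ± 0.37, adjusted p = 0.00103 and 0.00650), and Plod1 (0.91 ± 0.26, adjusted p = 0.0230) and Plod3 (1.52 ± 0.46, adjusted p = 0.0322) in dSCs. These were 1 of 12 modifying enzymes and 1 of 5 chaperones in bSCs (10.1% of all genes) and 2 of 12 enzymes in dSCs (9.61%). Of 4 processing genes tested there, Pcolce2, an enhancer of procollagen processing, was called lower in bSCs (-2.25 ± 0.51, adjusted p = 0.00516).

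Of 11 collagen receptors, 2 were called in the pooled nerves, both higher in bSCs than in iSCs, where 7.24% of all genes were. The integrin beta chain Itgb1 rose by 1.30 ± 0.29 (adjusted p = 0.00936), and Lair1, an inhibitory receptor of leukocytes, by 2.70 ± 0.78 (adjusted p = 0.0345). In single nerves Lair1 rose in dSCs (3.88 ± 0.95, adjusted p = 0.00925) and bSCs (3.89 ± 0.95, adjusted p = 0.00832), as did 7 and 5, respectively, of the 7 macrophage genes tested there. The part of macrophage RNA in the Lair1 values was not tested.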

How the data were processed

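RNA of tdTomato-positive cells sorted from mouse sciatic nerve was amplified with Smart-seq2, made into Nextera XT libraries and sequenced on an Illumina HiSeq with ERCC spike-ins. The authors aligned the reads to mm9 with TopHat (TopHat2 2.0.11 in the submitters' processing notes) and deposited counts per gene from HTSeq, as raw whole numbers without normalization. The strand setting of the counting is not given in the sources used here, and Smart-seq2 does not mark strand. Files of 1 library were summed, and the rows of the 92 spike-ins and of reads not assigned to a gene were left out, so that 39.1% to 45.7% of the counted reads of a pooled library and 40.0% to 47.1% of a single-nerve library were assigned to genes. The rat libraries of the series were not used here, and some genes of the SC list are not reported here.

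Counts were tested with edgeR 4.0.16 (R 4.3.3), using trimmed mean of M-values (TMM) factors (0.459 to 1.18) and the quasi-likelihood test, in 1 fit of the 12 pooled and 1 of the 35 single-nerve libraries. Genes were kept by edgeR's own filter in the former and with at least 100 counts in at least 85% of libraries in the latter. P-values were adjusted by Benjamini and Hochberg over all genes, with a threshold of 0.05, and CPM are TMM-scaled. Fold changes are on the log2 scale with standard errors (SE). P-values measure the spread between these libraries, and since PCR reads are not independent molecules, the floor of 3 counts covers counting error only. The fits were tested on simulated data with known changes.

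The pairing for the block comes from the animal named in the labels. Deviations from the group means correlated at a mean of 0.0456 (-0.00699 to 0.121) in 4 pooled dSC and bSC pairs and 0.164 (-0.123 to 0.686) in 10 single-nerve pairs, against -0.0712 for 23 single-nerve pairs of different animals. With pooled iSCs the mean was 0.00616 for 3 dSC pairs and -0.0801 for 3 bSC pairs. Values in every pooled library are given for the 13 chains called in a pooled comparison and the 3 highest of each class, 20 in all. The members and the marker, biosynthesis and receptor lists were chosen with earlier results of these data known. Transcript lengths are from GENCODE vM1 on NCBIM37. Alternatives were DESeq2 1.42.0, its size factors, no filter on low counts, edgeR's filter in single nerves, only the compared groups, a term for how many files a library had, the block and leaving out each library.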

Additional observations from a re-analysis of the deposited data

Results flagged for a closer look

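In 79 groups of 4 or 5 libraries searched for the named chains, 10 held a library far from the others by Dixon's criterion. Chance alone meets it in about 1 of 20 groups only where values are normally distributed. A group with a count in 1 library alone always meets it, as both Col24a1 groups below did. These 10 libraries are therefore given as a description. Among pooled bSCs, these were Col2a1 in library 2 (4.54 CPM, against 0 to 0.0859 in the others), Col8a1 in library 5 (1626 against 626 to 746) and Col24a1 in library 1 (0.493 against 0). Among pooled dSCs, they were Col3a1 in library 3 (6839 against 9888 to 10301), Col28a1 in library 3 (125 against 234 to 242) and Col4a3 in library 2 (21.4 against 0 to 0.597). In pooled iSCs, Col12a1 was at 46.6 CPM in library 4 against 21.4 to 24.8 in the others. Library 4 of the single-nerve iSCs stood apart for 3 chains, with Col16a1 at 131 CPM against 27.5 to 50.1, Col24a1 at 4.84 against 0 and Col28a1 at 111 against 11.2 to 38.8.

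The response to injury, relative to the same iSC libraries, differed between the bridge and the distal stump of pooled nerves for 3 of 36 chains. This was by edgeR's test of the difference itself, which called 5.43% of all genes. With the pool as a block only the Col2a1 difference was called, and the Col12a1 call was lost in 5 of 8 fits without 1 library. The log2 difference of bSCs from dSCs was 2.79 for Col12a1 (higher in bSCs in 4 of 4 pools), -2.11 for Col28a1 (lower in 4 of 4) and -7.89 for Col2a1 (lower in 4 of 4).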

How the results depend on the processing

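No call reversed its direction under any alternative run. Of 35 calls examined (20 pooled and 15 in single nerves), DESeq2 and its size factors kept all 35, no filter on low counts kept 33, fits of only the compared groups kept 28, and a term for the number of files kept 18 of 20 pooled calls. The counts of chains moved more. DESeq2 called 9 between pooled bSCs and dSCs (3 by edgeR, 14.3% of all genes by DESeq2), 10 between single-nerve dSCs and iSCs (6, 13.9%), 1 between single-nerve bSCs and dSCs (0, 0.837%) and 6 between dSC days (0, 3.18%). Without a filter, 15 of 44 chains were called between single-nerve bSCs and iSCs (9 of 19 in the main fit), against 8.52% of all genes. Between bSCs and dSCs 1 was called without a filter (0 in the main fit), against 0.163% of all genes. With edgeR's own filter, under which 43 chains remained, the counts were 15 (9.34% of all genes) and 1 (0.103%). Without the 4 single-nerve libraries of fewest genes, 3 were called between single-nerve dSCs and iSCs, against 6.33% of all genes. The libraries of low gene number and the nearly alike pair were chosen after seeing the data.

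With the animal as a block (paired fit), 6 chains were called between pooled bSCs and iSCs (10 without), where 7.04% of all genes were called. Between pooled bSCs and dSCs 1 was called (3 without), where 1.72% of all genes were. Between single-nerve bSCs and dSCs 1 was called (0 without), where the block called 6.41% of all genes and the main fit 0.112%. Of the 20 pooled calls, 10 were kept. The cause of these changes was not tested.

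Leaving out 1 library at a time gave 3 to 8 chains for pooled dSCs against iSCs, 3 to 12 for bSCs against iSCs and 2 to 7 for bSCs against dSCs, the 7 without bSC library 1. In single nerves the range was 3 to 7 for dSCs against iSCs, with 3 without iSC library 0, and 7 to 9 for bSCs against iSCs. It was 0 to 1 for bSCs against dSCs, with 1 without the day 10 bSC library 2. In all, 93 of 415 such fits of called chains lost the call.

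Chains close to 0 CPM rest on few reads, and groups of 3 or 4 libraries limit the precision of every difference.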
